A study of Mus musculus with 24 samples.

Results

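RNA of the wild-type (WT) mouse testes was compared with RNA of the WT mouse cerebellum, gene by gene, in 4 libraries of each tissue. Genes were kept where counts per 1000000 (CPM), scaled with trimmed mean of M-values (TMM) factors, reached 1 in at least 4 of these 8 libraries. This left 20969 of the 55450 genes of the table, and 8 of the 24 libraries of the series entered. The series was made to follow the loss of Thumpd1, a partner of the enzyme that acetylates serine and leucine tRNAs, in cerebellum, liver and testes. No knockout library and no liver library was used here, so that each value describes the normal difference between these tissues. All 8 libraries came from mice with both Thumpd1 alleles intact, of a line founded in C57BL/6N eggs and bred on a C57/BL6 background. The animals of the series were between 6 and 12 weeks old and of either sex per the labels, lived at 25 °C with 12 hours of light a day, and controls were littermates of matched age unless stated otherwise. Tissues were frozen in RNAlater, and total RNA was extracted with Trizol per the labels (TRI reagent and a column kit per the study's methods), depleted of ribosomal RNA with a stranded kit and read as paired ends on a NovaSeq instrument. The labels number the replicates of each tissue from 1 to 4 and do not say whether a number stands for 1 animal, so that p-values measure the spread between these libraries.

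In the seminiferous tubules of the testis, stem cells called spermatogonia divide, enter meiosis as spermatocytes, and mature as round and then elongating spermatids, which exchange histones for protamines and build a tail. Sertoli cells nurse these germ cells, Leydig cells between the tubules make testosterone, and muscle-like peritubular cells wrap the tubules. The cerebellar cortex holds vast numbers of small granule neurons that excite Purkinje cells, the output neurons of the cortex, beside inhibitory interneurons, Bergmann glia and myelinating oligodendrocytes. Both organs are known for splice forms and paralogs that few other tissues use.

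Total counts ran from 18.4 to 24.7 M in cerebellum and from 29.9 to 32.2 M in testes. A gene without counts may stand at up to 3 counts in a library, or 0.101 to 0.149 CPM, which covers counting error only. The TMM factors lay between 1.09 and 1.10 in cerebellum and between 0.900 and 0.929 in testes. A group of 6 abundant noncoding RNAs took 6.07 to 6.82% of the counts in cerebellum and 4.56 to 5.52% in testes. Some libraries stood apart in RNA of neighbouring tissue. Ttr, the thyroid hormone carrier made by the choroid plexus, was at 849, 876, 0.992 and 0.749 CPM in cerebellum replicates 1 to 4, and the 12 choroid plexus markers summed to between 95.5 and 1637 CPM, so that replicates 1 and 2 held choroid plexus RNA and 3 and 4 held little. Crisp1, a secreted protein of the epididymis, was at 0.0671, 104, 0.443 and 0.175 CPM in testes replicates 1 to 4, and the 10 epididymis markers summed to 138 CPM in testes replicate 2 and to at most 6.97 CPM in the other testes libraries. Ttr and Crisp1 did not pass the filter. Results of the genome-wide test are given with all 8 libraries, and without cerebellum replicates 1 and 2 the test called 10991 genes higher in testes and 8492 higher in cerebellum.

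The tissue labels matched their markers. Prm1, Defb19 and Star stood high in every testes library, and Gabra6, Pcp2 and Mbp stood high in every cerebellum library, with values given below. Markers of forebrain, midbrain and brainstem summed to between 11.8 and 12.7 CPM in cerebellum. Transcripts of 4 Y-linked genes passed 1 CPM in all 8 libraries. In bulk RNA, fewer cells of a type and less RNA per cell cannot be told apart, which applies to every gene list below.

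More genes were detected in testes than in cerebellum. At or above 1 CPM stood 19362 ± 84.5 genes in the testes libraries (mean ± SD, n = 4, from 19259 to 19466) and 15858 ± 66.4 in the cerebellum libraries (n = 4, from 15785 to 15927). The difference of 3504 genes had a two-sided exact permutation p of 0.0286, the smallest that 4 against 4 libraries can give. At a limit of 5 CPM the difference was 1304 genes and with library totals in place of TMM factors it was 2959.5, both with the same exact permutation p.

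Most genes differed between the tissues. The limma-voom fit with a Benjamini-Hochberg adjusted p under 0.05 called 11111 of 20969 genes higher in testes (53%) and 8612 higher in cerebellum (41.1%), and 1246 in neither direction. With a fold of at least 8 as a second condition, 5770 genes were higher in testes (27.5%) and 2635 in cerebellum (12.6%), so that 68.6% of the 8-fold calls lay in testes. With quantile normalization, which forces all libraries to a common distribution, the 8-fold calls numbered 4279 in testes and 4302 in cerebellum, and the testes share was 49.9%. The median log2 difference over all genes was 0.41 with TMM, -0.14 with quantile normalization, 0.14 with library totals and 0.16 with upper-quartile factors. Log2 differences below are testes minus cerebellum on the TMM-scaled CPM scale, given ± SE from the limma fit, and values in CPM stand in the order of replicates 1 to 4.

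Part of each count was set by the filter. Among the genes tested, 12879 stood at or above 1 CPM in all 4 libraries of both tissues, 5618 in all testes libraries only and 2388 in all cerebellum libraries only. Genes of the last 2 kinds entered through the tissue in which they were higher, so that their calls carry no support for a list. Among the 12879 genes at or above 1 CPM in both tissues, 5534 were higher in testes (43%) and 6253 in cerebellum (48.6%), with a median log2 difference of -0.13. For scale, genes just inside the limit were Vmn2r57 and Gpx7, whose 4th highest library stood at 1.01 CPM, and genes just outside it were Trim63 and Rec114 at 0.996 CPM.

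Per kilobase of exon, the 10 highest levels among genes 8-fold higher in testes were those of Prm1, Tnp2, Prm2, Tnp1, Ldhc, Tcte3, Gstm5, Smcp, Ybx2 and Insl3. Prm1 and Prm2 encode the protamines that pack sperm DNA, and Tnp1 and Tnp2 encode the transition proteins that precede them. Prm1 stood at 3018, 3050.2, 3044 and 3015 CPM in testes replicates 1 to 4, against 0, 0, 0.0496 and 0 CPM in cerebellum, where the summed count over 4 libraries was 1. Prm2 stood at 3164, 3556, 3405 and 3611 CPM in testes and at 0 in all 4 cerebellum libraries, at least 26535-fold higher when 3 counts per library are put in place of 0. By the same bound, Tnp2 was at least 19423-fold and Tnp1 at least 4891-fold higher. No testes library overlapped a cerebellum library for any of these 4 genes. Without the CPM filter, the fit no longer called Prm2, and Dnah8 and mt-Co1, described below, were lost with it.

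The coding sequences of Prm1 and Tnp1 (GENCODE M21, mm10) are shown because they carry the chemistry by which these proteins bind DNA, with the codons for arginine in capitals.
Prm1: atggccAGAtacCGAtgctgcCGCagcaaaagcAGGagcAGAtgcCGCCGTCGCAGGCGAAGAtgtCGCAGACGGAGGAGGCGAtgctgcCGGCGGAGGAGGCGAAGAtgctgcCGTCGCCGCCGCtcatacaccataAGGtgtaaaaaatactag
Tnp1: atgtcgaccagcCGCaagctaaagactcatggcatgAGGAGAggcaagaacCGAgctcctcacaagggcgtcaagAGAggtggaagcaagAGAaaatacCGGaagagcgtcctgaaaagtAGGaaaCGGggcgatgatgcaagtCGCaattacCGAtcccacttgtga
Prm1 lies at chr16:10796484-10796731 and is coded by 51 codons, of which 28 code for arginine (54.9%). Tnp1 lies at chr1:73015297-73015863 and has 11 arginine codons of 55 (20%) beside 10 lysine codons. Smcp, a cysteine-rich protein around sperm mitochondria, stood at 927, 967, 954 and 923 CPM in testes and at 0 in cerebellum, at least 7285-fold higher.

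Of 30 genes for the chromatin and tail of elongating spermatids, 30 were higher in testes, and 2 of them were at or above 1 CPM in both tissues, while the other 28 passed through testes only. Their summed level was 28036 to 30058 CPM in testes and 186 to 198 CPM in cerebellum. Round spermatid and acrosome genes were higher in testes in 36 of 36 cases, 6 of them at or above 1 CPM in both tissues. Among them Adam3, a sperm surface protein needed to reach the egg, stood at 998, 963, 979.8 and 990.5 CPM in testes, and Dkkl1, an acrosomal protein, at 665, 709, 696 and 686 CPM. In the 4 cerebellum libraries together, Adam3 had 1 count and Dkkl1 had 3. The median log2 difference was 13.71 for the elongating and 11.53 for the round spermatid list, and 12.46 and 9.73 with genes at 0 put at their bound. For the 2 and 6 members at or above 1 CPM in both tissues, the medians were 5.66 and 5.60.

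Meiotic genes were also higher in testes. Of 39 tested genes for recombination and synapsis 37 were higher in testes and none in cerebellum (36 and 3 with quantile normalization), and among the 10 at or above 1 CPM in both tissues 8 were higher in testes. Sycp2, a protein of the chromosome axis, stood at 351, 292, 314 and 328 CPM in testes and 0.865, 0.552, 0.744 and 0.656 CPM in cerebellum (log2 difference 8.80 ± 0.217). Stag3, the meiotic cohesin subunit, stood at 537, 548, 549 and 559 CPM in testes and 1.02, 0.773, 0.992 and 1.03 CPM in cerebellum (log2 difference 9.14 ± 0.107). Syce1, of the central element that joins paired chromosomes, reached 216, 216, 222 and 221 CPM in testes. None of these genes overlapped between tissues. In the piRNA pathway, which silences transposons in germ cells, 18 of 19 tested genes were higher in testes and none in cerebellum, but 15 of the 19 passed the filter through testes only, and 3 of the 4 at or above 1 CPM in both tissues were higher in testes. Tdrd6, a scaffold of the germ-cell RNA granule, stood at 1017, 1000.2, 1079 and 1099 CPM in testes and 1.65, 1.80, 1.09 and 1.36 CPM in cerebellum (log2 difference 9.47 ± 0.190), and Ddx4, the Vasa helicase, at 401, 373, 376 and 395 CPM in testes and 0.629, 0.515, 0.893 and 0.656 CPM in cerebellum (log2 difference 9.14 ± 0.152). The list medians were 7.42 for meiosis and 8.77 for the piRNA pathway, and 6.72 and 8.63 with genes at 0 at their bound. Members at or above 1 CPM in both tissues had medians of 2.38 and 5.33.

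Spermatogonial genes were split. Of 17 tested, 9 were higher in testes and 6 in cerebellum (8 and 8 with quantile normalization), near the 53% and 41.1% of all genes tested. The summed level of the list was 370 to 409 CPM in testes and 435 to 446 CPM in cerebellum. Among the 9 that stood at or above 1 CPM in both tissues, 1 was higher in testes. Kit, the stem cell factor receptor that also marks cerebellar interneurons, stood at 166, 171, 181 and 183 CPM in cerebellum and 45.6, 45.5, 45.4 and 41.3 CPM in testes (log2 difference -1.98 ± 0.0494). Ret, the receptor subunit for the growth factor Gdnf, stood at 33.6, 34.3, 32.7 and 33.3 CPM in cerebellum and 1.68, 2.89, 1.81 and 1.85 CPM in testes (log2 difference -4.05 ± 0.134), and Id4, an inhibitor of helix-loop-helix factors, at 68.6, 61.4, 67.0 and 70.8 CPM in cerebellum and 31.5, 34.0, 32.4 and 31.4 CPM in testes (log2 difference -1.05 ± 0.0545). The tissues did not overlap for these 3 genes, and cerebellum was the higher each time. Dazl, a germ-cell translation regulator, pointed the other way with 134, 137, 118 and 123 CPM in testes and 0.157, 0.294, 0.347 and 0.281 CPM in cerebellum (log2 difference 8.82 ± 0.201). Dmrt1, a germ and Sertoli cell transcription factor, was at 0 in cerebellum and at 27.0, 31.1, 28.2 and 26.7 CPM in testes, at least 218-fold higher.

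The largest log2 differences toward testes, among genes with reads in all 8 libraries and a mean of at least 1 log2 CPM, were those of Oaz3, Insl3, Meig1, March10, Ms4a14, Dnah8, Fhl4, Stat4, Dmrtb1 and Dnah17. These rest on few cerebellum counts, from 6 for Oaz3 to 66 for Dnah8 over 4 libraries, so that their sizes and order are not fixed. Oaz3 is the germ-cell antizyme that limits polyamine synthesis, and it stood at 1388, 1454, 1539.7 and 1466 CPM in testes and 0.0393, 0.0368, 0.0496 and 0.140 CPM in cerebellum. Dnah8, a dynein heavy chain of the sperm tail, stood at 3415, 3279.7, 3539 and 3547 CPM in testes and 0.669, 0.736, 0.794 and 0.609 CPM in cerebellum (log2 difference 12.22 ± 0.179). Dmrtb1, which times the entry into meiosis, stood at 618, 648, 649.9 and 656 CPM in testes and 0.197, 0.184, 0.149 and 0.0468 CPM in cerebellum (log2 difference 12.05 ± 0.239). Exons of Oaz3, Tcte3, March10, Pcp2, Atp1b1, Csf1r, Pdha1 and Uchl1 share a sizeable part of their bases with a gene on the other strand, and those of Insl3, Stat4 and Trf with a gene on the same strand. The strand setting of the counting is not given in the sources used here, so that the values of these genes are uncertain.

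Among RNA-binding proteins of germ cells, 12 of 15 tested genes were higher in testes and 3 in cerebellum, and 6 and 3 of the 9 at or above 1 CPM in both tissues. Ybx2, which stores spermatid mRNAs, stood at 1787, 1895, 1927 and 1976 CPM in testes and 1.57, 2.21, 2.23 and 1.64 CPM in cerebellum (log2 difference 9.95 ± 0.190). Its broad relative Ybx1 was also higher in testes, with 774 ± 41.1 CPM against 42.7 ± 1.56 CPM in cerebellum (SD, n = 4; log2 difference 4.17 ± 0.0607). The 3 members higher in cerebellum were Msi2, Tial1 and Cpeb1, with log2 differences of -1.58, -0.94 and -0.89.

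Most markers of the somatic cells of the testis were higher in testes too. Of 22 Sertoli cell genes 17 were higher in testes and 3 in cerebellum (6 and 3 of the 11 at or above 1 CPM in both tissues, and 16 and 5 of all 22 with quantile normalization), and the list summed to 1635 to 1848 CPM in testes and 722 to 779 CPM in cerebellum. Clu, a secreted chaperone, stood at 896, 969, 849 and 826 CPM in testes and 255, 270.5, 217 and 223 CPM in cerebellum (log2 difference 1.87 ± 0.0759). Defb19, a defensin of Sertoli cells, was at 0 in cerebellum and at 75.9, 81.4, 72.2 and 69.1 CPM in testes, at least 577-fold higher. The 3 members higher in cerebellum were Trf, an iron carrier also made by oligodendrocytes, Kitl, the Kit ligand, and Sox9, a factor shared with astrocytes. Kitl stood at 115, 105, 117 and 124 CPM in cerebellum and 35.6, 28.3, 27.8 and 29.0 CPM in testes (log2 difference -1.93 ± 0.0821), and Sox9 at 47.5, 45.8, 48.3 and 49.7 CPM in cerebellum and 30.4, 33.3, 29.1 and 28.1 CPM in testes (log2 difference -0.66 ± 0.0574). Cerebellum was above testes in every library for both.

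Leydig cell genes were higher in testes in 15 of 16 cases, and in 5 of the 6 at or above 1 CPM in both tissues, and the exception was Por, the electron donor of all microsomal P450 enzymes, with a log2 difference of -0.51 ± 0.0878. Cyp17a1, which makes the androgen precursors, stood at 280.5, 267, 263 and 267 CPM in testes and had 1 count in the 4 cerebellum libraries together. Star, which brings cholesterol into mitochondria, stood at 83.1, 90.2, 101 and 101 CPM in testes and 2.91, 3.64, 3.52 and 3.09 CPM in cerebellum (log2 difference 4.82 ± 0.170). Insl3, the Leydig hormone of testis descent, stood at 552, 688, 620.3 and 581 CPM in testes and 0.0909, 0.116, 0.0372 and 0.0936 CPM in cerebellum. Peritubular and vascular muscle genes were higher in testes in 8 of 8 cases, 6 of them at or above 1 CPM in both tissues. The smooth muscle actin Acta2 stood at 55.1, 62.1, 53.7 and 54.5 CPM in testes and 6.69, 6.95, 6.45 and 6.27 CPM in cerebellum (log2 difference 3.09 ± 0.0945), and the smooth muscle myosin Myh11 at 39.1, 41.9, 34.4 and 34.9 CPM in testes and 6.10, 5.74, 6.60 and 5.67 CPM in cerebellum (log2 difference 2.64 ± 0.117).

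**Figure D1:**
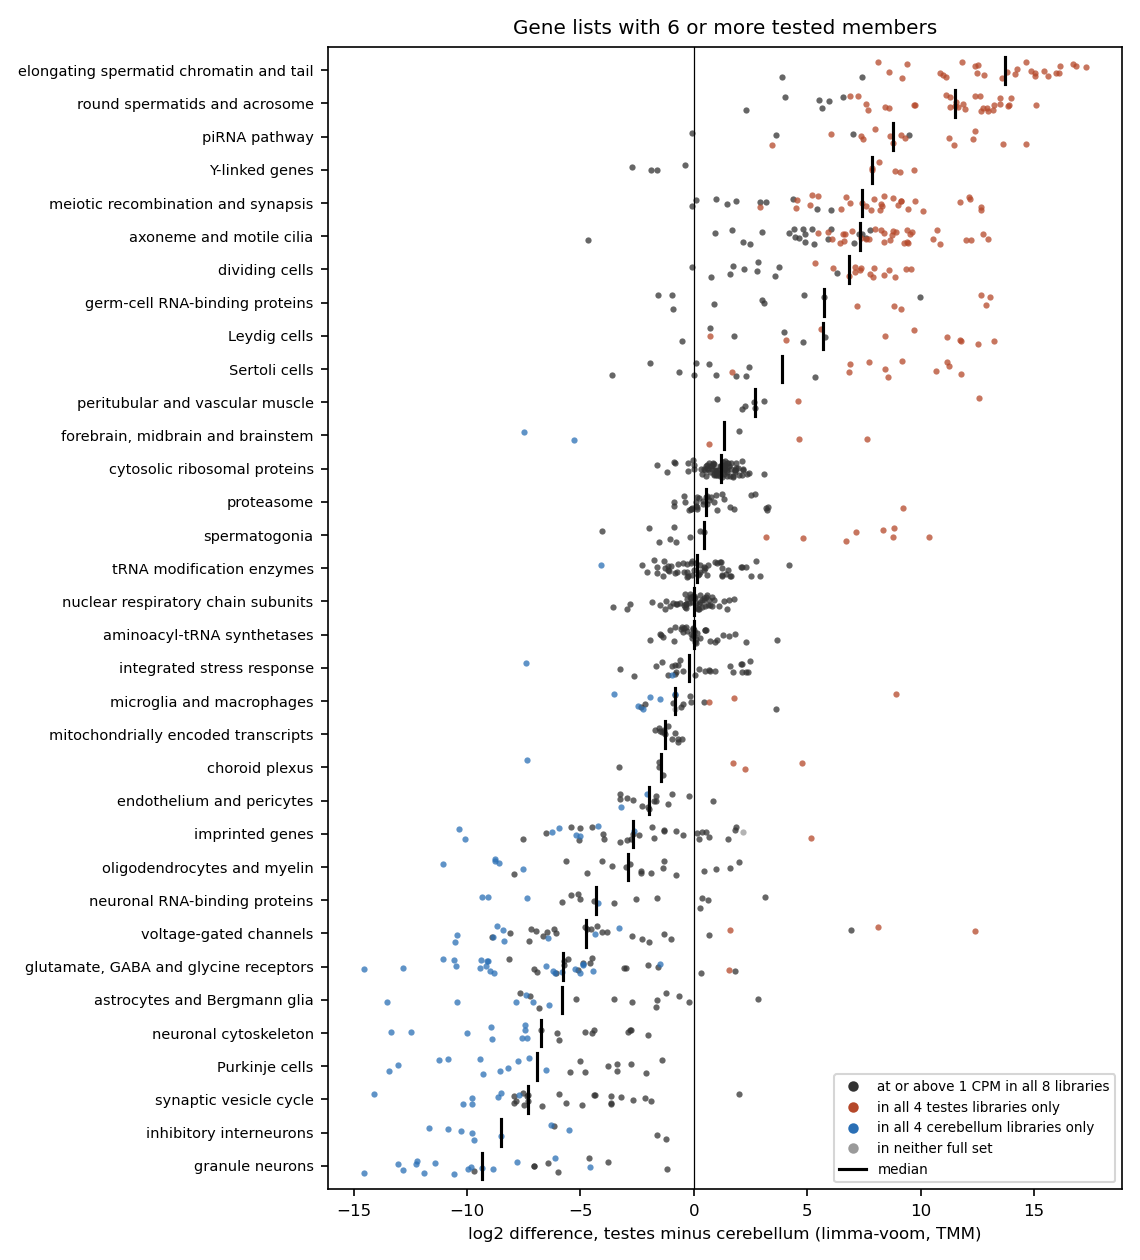
Each point is the log2 difference between testes and cerebellum of 1 gene, by gene list, for lists with at least 6 tested members, and the black bar is the median of the list. Black points passed 1 CPM in all 8 libraries, red points in all testes libraries only and blue points in all cerebellum libraries only. Grey points passed in neither full set. Spermatid lists lie at the testes end, granule neuron and synapse lists at the cerebellum end. Medians run from -9.33 to 13.71 and include members that passed in 1 tissue only.

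Axoneme genes build the motile cilium and the sperm tail. Of 54 tested, 53 were higher in testes, and among the 22 at or above 1 CPM in both tissues 21 were. Cfap206, a radial spoke protein, stood at 607, 602, 639 and 651 CPM in testes and 0.826, 0.846, 0.0992 and 0.328 CPM in cerebellum (log2 difference 10.55 ± 0.405). That difference ran from 9.94 to 10.88 with 1 library left out. Tekt1, a filament protein inside axonemal microtubules, stood at 183, 192, 187 and 197 CPM in testes and 0.826, 0.515, 0.149 and 0.656 CPM in cerebellum (log2 difference 8.63 ± 0.314). Several axoneme genes stood higher in cerebellum replicates 1 and 2, which held choroid plexus RNA, and the list summed to 289 and 281 CPM there against 249 and 254 CPM in replicates 3 and 4. Without replicates 1 and 2, the list again had 53 of 54 members higher in testes. The single member higher in cerebellum was Dnah11, a dynein heavy chain, at 93.5, 91.1, 93.8 and 97.5 CPM there and 4.03, 3.61, 3.91 and 3.21 CPM in testes (log2 difference -4.67 ± 0.0850). Rfx factors, which drive cilium genes, bind X-box sites whose core reads GTTGCCAT. Promoters of 48 of the 54 genes were in the RefSeq table (GRCm38.p6, 250 bases before to 50 after the start), and 4 of the 48 (8.33%) held that core on either strand, against 441 of all 32817 promoters of the table (1.34%). The matches before the start in Tekt1, Cfap161 and Cfap44 are shown to set the letters beside the levels, with the core or its reverse complement in capitals. Cfap161 and Cfap44 were chosen for this match, after their values were seen.
Tekt1, chr11:72361883-72361913, minus strand: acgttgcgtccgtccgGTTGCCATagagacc
Cfap161, chr7:83794857-83794896, minus strand: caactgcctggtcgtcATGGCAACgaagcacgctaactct
Cfap44, chr16:44394762-44394798, plus strand: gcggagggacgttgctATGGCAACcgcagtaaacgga
Cfap161 stood at 70.9 ± 1.73 CPM in testes and 0.806 ± 0.157 CPM in cerebellum, and Cfap44 at 131 ± 4.83 CPM in testes and 3.94 ± 2.43 CPM in cerebellum (SD, n = 4), so that both were higher in testes without overlap. The other motif searched, the cyclic AMP response element TGACGTCA, was in 2 of the 48 (4.17%), against 588 of 32817 (1.79%). Among the other lists with at least 20 matched promoters its share ran from 0% to 10.7% (6 of 56 for ribosomal proteins), while the X-box core was in at most 1 promoter of each other list. These shares are of the promoters that matched, and no test was run on them. A match describes letters and not a bound site.

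Genes of dividing cells were higher in testes in 24 of 25 cases, and in 9 of the 10 that stood at or above 1 CPM in both tissues. Foxm1, a factor of mitotic entry, stood at 214, 229.7, 224 and 221 CPM in testes and 0.944, 0.809, 0.794 and 0.983 CPM in cerebellum (log2 difference 7.95 ± 0.112). Plk1, a mitotic kinase, stood at 96.3, 102, 104 and 103 CPM in testes and 0.629, 0.442, 0.744 and 0.562 CPM in cerebellum (log2 difference 7.38 ± 0.135). The adult cerebellum is a tissue of cells past division, and both genes stayed under 1 CPM in each of its libraries.

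In cerebellum, per kilobase of exon, the highest levels among genes 8-fold higher there included those of Rny1, Rny3, Sparcl1, Eef1a2, Ckb, Aldoc, Pvalb, Atp1b1 and Snap25. Rny1 and Rny3 are short Y RNAs, for which a level per kilobase rests on few exon bases. Eef1a2, the elongation factor of neurons and muscle, stood at 651, 667, 663 and 621 CPM in cerebellum and 0.0671, 0.0680, 0.221 and 0.0698 CPM in testes (log2 difference -12.52 ± 0.240). Snap25, a membrane fusion protein of the synapse, stood at 1634, 1552, 1621 and 1712 CPM in cerebellum and 0, 0.136, 0.0738 and 0.279 CPM in testes (log2 difference -14.12 ± 0.530). Every cerebellum library was above every testes library for these genes. With 1 library left out, the Snap25 difference ran from -14.68 to -13.30, so that its size is not fixed. The largest log2 differences toward cerebellum, among genes with reads in all 8 libraries and a mean of at least 1 log2 CPM, included those of Eef1a2, Fat2, Cadm3, Pvalb, Rgs8, Ptprz1, Car8 and Gabrb2, which rest on 8 (Pvalb) to 44 (Fat2, Car8) testes counts over 4 libraries.

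Granule neuron genes were higher in cerebellum in 23 of 23 cases, 8 of them at or above 1 CPM in both tissues. Gabra6, the GABA receptor subunit of mature granule neurons, stood at 412, 398, 403 and 428 CPM in cerebellum and at 0 in all testes libraries, at least 3925-fold higher. Fat2, a giant cadherin of granule cell axons, stood at 1699, 1734, 1928 and 1876 CPM in cerebellum and 0.268, 0.612, 0.406 and 0.244 CPM in testes (log2 difference -12.23 ± 0.273). Cbln1, the secreted organizer that ties granule axons to Purkinje cells, stood at 543, 563, 549 and 538 CPM in cerebellum and 4.06, 4.35, 4.54 and 3.87 CPM in testes (log2 difference -7.02 ± 0.0756). The list median was -9.33, and -8.83 with genes at 0 at their bound. It was -6.19 for the 8 members at or above 1 CPM in both tissues. The summed level of the list was 9433 to 9842 CPM in cerebellum and 341 to 350.5 CPM in testes.

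Purkinje cell genes were higher in cerebellum in 20 of 20 cases, 9 of them at or above 1 CPM in both tissues. Pcp2, a Purkinje cell regulator of G proteins, stood at 142, 155, 143 and 152 CPM in cerebellum and at 0 in testes, at least 1417-fold higher. Calb1, a calcium buffer, stood at 553, 511, 537 and 568 CPM in cerebellum and 0, 0.0340, 0.111 and 0.0349 CPM in testes (log2 difference -13.43 ± 0.372). Itpr1, the calcium release channel of the endoplasmic reticulum, stood at 3092, 3078, 3336 and 3321 CPM in cerebellum and at 77.3, 77.3, 68.2 and 71.3 CPM in testes (log2 difference -5.44 ± 0.0578). Inhibitory interneuron genes were higher in cerebellum in 11 of 11 cases, of which 8 passed the filter through cerebellum only and 3 stood at or above 1 CPM in both tissues. Gad1, which makes GABA, stood at 338, 336, 351 and 341 CPM in cerebellum and 0.537, 1.19, 1.14 and 0.977 CPM in testes (log2 difference -8.51 ± 0.177), and Pvalb, a calcium buffer of interneurons and Purkinje cells, at 269.6, 270.0, 274 and 292 CPM in cerebellum and 0.0671, 0.0340, 0.0738 and 0.105 CPM in testes (log2 difference -11.69 ± 0.184).

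Glial genes were higher in cerebellum with named exceptions. Of 18 astrocyte and Bergmann glia genes 17 were higher in cerebellum, and 1 in testes (11 and 1 of the 12 at or above 1 CPM in both tissues). Slc1a3, the glutamate transporter of Bergmann glia, stood at 765, 767, 808 and 802 CPM in cerebellum and 7.18, 6.70, 7.20 and 6.98 CPM in testes (log2 difference -6.80 ± 0.0696). The exception was Agt, angiotensinogen, at 241, 318, 281 and 276 CPM in testes and 39.0, 43.2, 38.1 and 35.1 CPM in cerebellum (log2 difference 2.83 ± 0.108). Of 22 oligodendrocyte and myelin genes 18 were higher in cerebellum (13 of the 17 at or above 1 CPM in both tissues), and Mbp, the myelin basic protein, stood at 1332, 1417, 1154 and 1133 CPM in cerebellum and 5.47, 5.65, 4.91 and 4.54 CPM in testes (log2 difference -7.94 ± 0.247). The 4 higher in testes were Fa2h, Nkx6-2, Cldn11 and Pdgfra. Fa2h, which hydroxylates fatty acids of sphingolipids, stood at 82.1, 95.2, 96.2 and 91.0 CPM in testes and 24.5, 25.3, 20.7 and 20.7 CPM in cerebellum (log2 difference 1.98 ± 0.0850). Cldn11, a tight junction claudin of both myelin and the Sertoli cell barrier, stood at 89.6, 92.5, 81.6 and 81.1 CPM in testes and 48.7, 47.4, 38.5 and 37.3 CPM in cerebellum (log2 difference 1.00 ± 0.0894).

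Microglia and macrophage genes were divided. Of 20 tested, 13 were higher in cerebellum and 5 in testes (16 and 3 with quantile normalization, and 15 and 3 with library totals or upper-quartile factors), and 6 and 2 of the 10 at or above 1 CPM in both tissues. Csf1r, the receptor on which both cell types depend, stood at 20.1, 23.1, 19.6 and 18.4 CPM in cerebellum and 10.6, 11.0, 10.1 and 11.1 CPM in testes (log2 difference -0.92 ± 0.0831). Mrc1, the mannose receptor of tissue macrophages, stood at 49.3, 44.8, 38.4 and 41.9 CPM in testes and 3.78, 3.57, 3.13 and 3.75 CPM in cerebellum (log2 difference 3.60 ± 0.156). Aif1, a calcium-binding protein of macrophages that is also transcribed in the testis, stood at 206, 204, 204 and 212 CPM in testes and 0.472, 0.442, 0.149 and 0.796 CPM in cerebellum (log2 difference 8.93 ± 0.287). The list summed to 304 to 316 CPM in testes, most of it from Aif1, and to 110 to 126 CPM in cerebellum. Endothelium and pericyte genes were higher in cerebellum in 15 of 16 cases, 13 of them at or above 1 CPM in both tissues, and Vwf, the clotting factor carrier, was higher in testes (log2 difference 0.85 ± 0.0704). Cldn5, the tight junction protein of brain vessels, stood at 22.1, 23.5, 19.4 and 22.0 CPM in cerebellum and 5.74, 8.03, 6.42 and 7.29 CPM in testes (log2 difference -1.68 ± 0.109).

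Of the 12 choroid plexus genes 8 were tested, 3 were called higher in cerebellum and 1 in testes, and the median was -1.45 with all libraries and 0.81 without cerebellum replicates 1 and 2, so that its direction rested on those libraries. Enpp2, which makes lysophosphatidic acid in choroid plexus and oligodendrocytes, stood at 620.4, 621, 76.1 and 78.8 CPM in cerebellum replicates 1 to 4 and at 24.5, 25.0, 23.1 and 22.3 CPM in testes. The 6 tested genes of forebrain, midbrain and brainstem were 4 higher in testes and 2 in cerebellum, and the median of 1.34 became -1.45 with quantile normalization. Of the 6 blood genes 3 were tested, with 2 higher in cerebellum and 1 in testes. The 1 tested epididymis gene, Rnase10, was higher in testes.

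Genes of neuronal signalling were higher in cerebellum. In the synaptic vesicle cycle 28 of 29 genes were higher in cerebellum, and 21 of the 22 at or above 1 CPM in both tissues. Cplx2, a clamp of vesicle fusion, stood at 883, 916, 949 and 928 CPM in cerebellum and 1.11, 0.816, 1.14 and 1.05 CPM in testes (log2 difference -9.79 ± 0.137). The exception was Stx1a, a syntaxin, at 5.97, 5.10, 5.50 and 4.71 CPM in testes and 1.34, 1.32, 1.14 and 1.40 CPM in cerebellum (log2 difference 2.01 ± 0.129). All 19 neuronal cytoskeleton genes were higher in cerebellum, and 10 of them stood at or above 1 CPM in both tissues. Tubb4a, a brain tubulin, stood at 461, 485, 464 and 454 CPM in cerebellum and had 4 counts in the testes libraries together, and Map1a, a microtubule binder, stood at 1014, 1058, 1085 and 1047 CPM in cerebellum and 15.9, 18.7, 16.9 and 17.2 CPM in testes (log2 difference -5.93 ± 0.0565).

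Receptors for glutamate, GABA and glycine were higher in cerebellum in 37 of 40 cases and in testes in 3, and in 15 and 2 of the 17 at or above 1 CPM in both tissues. Gria1, an AMPA receptor subunit of Bergmann glia and neurons, stood at 433, 434, 463 and 459 CPM in cerebellum and 1.48, 1.43, 1.73 and 1.71 CPM in testes (log2 difference -8.13 ± 0.125). Grin2d, an NMDA receptor subunit, stood at 60.7 ± 4.45 CPM in testes and 17.3 ± 1.26 CPM in cerebellum (SD, n = 4, log2 difference 1.81 ± 0.0782). Grik5, a kainate receptor subunit, was called higher in testes with TMM (log2 difference 0.32 ± 0.0362) and stood at -0.0062 with quantile normalization, and its call was lost with library totals and upper-quartile factors too. Gabra5, a GABA receptor subunit, stood at 1.59 ± 0.232 CPM in testes and 0.533 ± 0.0885 in cerebellum (SD, n = 4), and its log2 difference of 1.54 ± 0.162 turned to -1.51 with quantile normalization.

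Voltage-gated channels were higher in cerebellum in 29 of 34 cases and in testes in 5, and in 20 and 2 of the 22 at or above 1 CPM in both tissues. Cacna1a, the P/Q-type calcium channel that dominates Purkinje cells, stood at 742, 754, 808 and 776 CPM in cerebellum and 26.2, 28.3, 27.7 and 27.6 CPM in testes (log2 difference -4.81 ± 0.0489). The members higher in testes included Catsper1 and Kcnu1, pore subunits of the calcium and potassium channels of sperm. Catsper1 was at 0 in cerebellum and at 119, 119, 114 and 115 CPM in testes, at least 901-fold higher, and Kcnu1 stood at 86.7, 86.7, 85.2 and 87.3 CPM in testes and 0.157, 0.368, 0.248 and 0.468 CPM in cerebellum (log2 difference 8.12 ± 0.203). Cacna1h, a T-type calcium channel, stood at 379, 448, 463 and 445 CPM in testes and 3.62, 3.72, 3.57 and 3.04 CPM in cerebellum (log2 difference 6.94 ± 0.214). All 3 were higher in testes without overlap.

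Neuronal RNA-binding proteins were higher in cerebellum in 12 of 16 cases, and in 8 of the 12 at or above 1 CPM in both tissues. Rbfox3, the splicing factor known as NeuN, stood at 374, 401, 405 and 388 CPM in cerebellum and 0.671, 0.748, 0.369 and 0.663 CPM in testes (log2 difference -9.33 ± 0.173). The 4 higher in testes were Khdrbs3, Celf3, Celf5 and Ptbp2, with log2 differences of 3.14, 0.61, 0.34 and 0.29. Ptbp2, a splicing repressor of neurons that germ cells also use, stood at 146, 121, 144 and 141 CPM in testes and 115, 102, 114 and 121 CPM in cerebellum, and its difference turned to -0.056 with quantile normalization. With library totals and quantile normalization the calls for Celf5 and Ptbp2 were lost, and that for Ptbp2 with upper-quartile factors too.

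Many proteins have a broad form and a form known from germ cells or neurons, and 54 such pairs of paralogs were set side by side. In 39 germ-cell pairs the germ-cell partner was higher in testes in 36, the broad partner was higher in cerebellum in 26, and both held in 24. Germ-cell partners under 1 CPM in cerebellum entered the test through testes, so that their calls carry no support for a pattern. Of all genes at or above 1 CPM in both tissues, 48.6% were higher in cerebellum. The broad partner was higher in cerebellum in 9 of 9 pairs of an X-linked gene with an autosomal retrocopy, described below, and in 17 of the other 30. In 12 pairs the broad partner was higher in testes, among them the pair of Eif4e, whose germ-cell partner Eif4e1b was not tested. Per kilobase of exon, the germ-cell partner made up over 50% of the pair in testes in 34 of 39 pairs and in cerebellum in 3, with a median share of 86.8% in testes and 0.0365% in cerebellum.

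Enzymes of glycolysis held clear cases of both patterns. Pgk2, the phosphoglycerate kinase of sperm, stood at 728, 666, 719.8 and 755 CPM in testes and at 0 in cerebellum, at least 5541-fold higher. Its X-linked relative Pgk1 stood at 15.4, 13.9, 13.9 and 15.5 CPM in testes and 127, 124, 119 and 112 CPM in cerebellum (log2 difference -3.04 ± 0.0658). Per kilobase, Pgk2 was at 441 CPM and Pgk1 at 6.54 CPM in testes, so that Pgk2 made up 98.5% of the pair there. Gapdhs, the sperm glyceraldehyde phosphate dehydrogenase, stood at 1302, 1440.3, 1431 and 1414 CPM in testes and at 0 in cerebellum, and Gapdh at 102, 118, 104 and 99.1 CPM in testes and 722, 756, 674 and 682 CPM in cerebellum (log2 difference -2.75 ± 0.0583). Ldhc, the lactate dehydrogenase of sperm, stood at 2064, 1999, 2057 and 2132 CPM in testes and had 1 count in cerebellum, and its relative Ldha was higher in testes too, at 637, 600.0, 659 and 677 CPM in testes against 54.6, 58.6, 58.8 and 53.8 CPM in cerebellum (log2 difference 3.51 ± 0.0567). Ldha was thus among the 12 broad partners higher in testes.

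The start of the coding sequences of Pgk1 and Pgk2 is shown because it bears on whether reads can be told apart, with the bases that differ in capitals (GENCODE M21, mm10, first 120 bases).
Pgk1: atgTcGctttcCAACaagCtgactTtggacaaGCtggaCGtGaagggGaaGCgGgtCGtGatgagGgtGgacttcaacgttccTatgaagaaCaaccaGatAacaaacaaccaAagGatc
Pgk2: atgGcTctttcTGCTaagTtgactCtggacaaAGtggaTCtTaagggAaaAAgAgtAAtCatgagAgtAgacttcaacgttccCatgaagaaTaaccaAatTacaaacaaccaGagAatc
The pair differed at 28 of these 120 bases, was 79.3% identical over the coding sequence, and shared no identical run above 22 bases. Pgk1 lies at chrX:106187251-106203279 with 11 exons and Pgk2 at chr17:40207282-40208535 with 1. Aldoa and Aldoart1 were 93.9% identical with a shared run of 86 bases, and Gk and Gk2 shared a run of 76 bases, so that the split of reads within these 2 pairs is uncertain.

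In 9 of the 39 germ-cell pairs an X-linked gene is set beside an autosomal copy of the retrocopy kind, which arises from a reinserted transcript. The X-linked partner was higher in cerebellum in 9 of 9, beside 78.7% of X-linked protein-coding genes at or above 1 CPM in both tissues. The autosomal copy was higher in testes in 7. These 7 copies stood at 0 to 0.0141 CPM per kilobase in cerebellum and entered the test through testes, so that their calls carry no support. Pdha2, a subunit of pyruvate dehydrogenase, stood at 148, 151, 158 and 158 CPM in testes and at 0 in cerebellum, and its X-linked relative Pdha1 at 7.38, 8.27, 7.12 and 8.13 CPM in testes and 100.1, 98.5, 96.5 and 101 CPM in cerebellum (log2 difference -3.68 ± 0.0611). Rpl10l, a ribosomal protein of the germ line, was at 0 in cerebellum and at 113, 112, 120.2 and 119.5 CPM in testes, at least 898-fold higher, with Rpl10 at 29.4, 37.5, 28.9 and 29.4 CPM in testes against 56.5, 58.9, 49.7 and 54.8 CPM in cerebellum (log2 difference -0.82 ± 0.0886). In the 2 remaining pairs the copies were not called, Cstf2t with a log2 difference of 0.04 ± 0.0538 and Utp14b with 0.02 ± 0.0657, and both signs turned negative with library totals, upper-quartile factors and quantile normalization.

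Subunits of cytochrome oxidase and of cohesin formed such pairs as well. Cox8c was at 0 in cerebellum and at 104, 109.7, 114 and 109 CPM in testes, at least 845-fold higher, and Cox8a stood at 17.8, 19.3, 18.4 and 16.9 CPM in testes and 130.0, 137, 126 and 122 CPM in cerebellum (log2 difference -2.83 ± 0.0612). Atp1a4, the sodium pump subunit of sperm, stood at 646, 647, 675 and 685 CPM in testes with 1 count in cerebellum. In cohesin, Smc1b stood at 197, 165, 186 and 194 CPM in testes with 1 count in cerebellum, and the X-linked Smc1a stood at 9.23, 8.27, 7.90 and 9.08 CPM in testes and 57.0, 55.0, 57.1 and 60.7 CPM in cerebellum (log2 difference -2.73 ± 0.0685). Rad21 made up the larger part of its pair in testes, where Rad21l made up 7.56% per kilobase.

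In 14 neuronal pairs the neuronal partner was higher in cerebellum in 10, the broad partner was higher in testes in 9, and both held in 5. Snap25 and Snap23 were such a pair, with Snap23 at 26.8, 22.3, 25.5 and 24.9 CPM in testes and 12.0, 10.7, 14.6 and 12.2 CPM in cerebellum (log2 difference 1.03 ± 0.0969). Dnm1, the dynamin of synaptic vesicle recycling, stood at 814, 856, 852 and 833 CPM in cerebellum and 25.0, 30.7, 28.9 and 26.8 CPM in testes (log2 difference -4.92 ± 0.0551), and the broad Dnm2 at 256, 276, 269 and 273 CPM in testes and 57.4, 60.6, 59.5 and 57.0 CPM in cerebellum (log2 difference 2.19 ± 0.0384). Neuronal partners under 1 CPM in testes, as Snap25 was, entered the test through cerebellum, so that their calls carry no support for a pattern. For the broad partners, the share higher in testes among all genes at or above 1 CPM in both tissues was 43%. In 4 pairs the neuronal partner was not higher in cerebellum. Ppp2r2b, a phosphatase subunit, had a log2 difference of 1.41 ± 0.0420, Ptbp2 of 0.29 ± 0.0711, Pfn2, an actin-binding profilin, of 0.18 ± 0.0495 with the sign turning under library totals, upper-quartile factors and quantile normalization, and Uchl1, a ubiquitin hydrolase known from neurons and spermatogonia, was not called at -0.19 ± 0.0965 with TMM and was called higher in cerebellum with quantile normalization (-0.44).

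**Figure D2:**
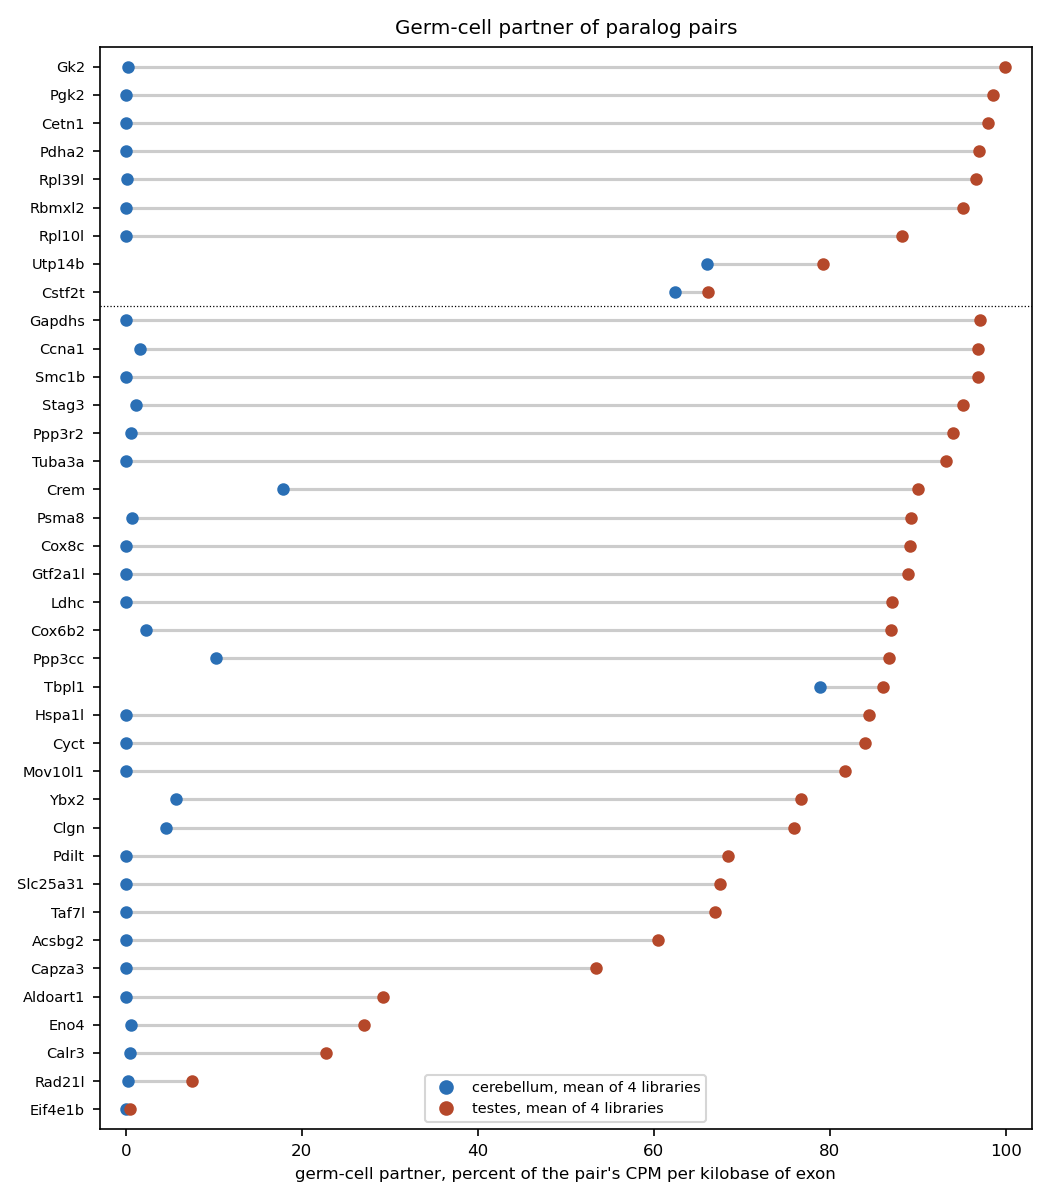
For 38 of the 39 pairs of a germ-cell partner, named on the axis, and a broad partner, the share of the germ-cell partner in the summed CPM per kilobase of exon of the pair is plotted in percent, in cerebellum (blue) and testes (red), each from the mean of 4 libraries. Pairs above the dotted line join an X-linked gene to an autosomal retrocopy, and shares run from 0 to 78.9% in cerebellum and lie above 50% in testes for 33 of those plotted.

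X-linked genes that both tissues express leaned to cerebellum. Of 362 X-linked protein-coding genes at or above 1 CPM in both tissues, 78.7% were higher in cerebellum and 15.2% in testes, with a median log2 difference of -1.39. Of 11266 autosomal genes of the same kind, 46.5% were higher in cerebellum and 45.7% in testes, with a median of -0.02. The share higher in cerebellum ran from 44.0% on chromosome 5 to 52.8% on chromosome 18 among the autosomes. Over all alternatives that were run, scalings and left-out libraries included, the X-linked share higher in cerebellum stayed between 76.0 and 85.4% and the autosomal share between 44.3 and 55.1%. The balance of the autosomes turned with scaling, with a median of 0.073 and shares of 44.4% in cerebellum and 47.8% in testes with DESeq2, and a median of -0.38 and shares of 55.1 and 38.4% with quantile normalization. A further 245 X-linked protein-coding genes passed the filter in testes only and 68 in cerebellum only. By the 8-fold rule, 35.1% of all 676 tested X-linked protein-coding genes were higher in testes and 16.4% in cerebellum, beside 21.8% and 11.5% of all 15870 protein-coding genes. Of the 237 X-linked genes 8-fold higher in testes 5 passed the filter in both tissues, and of the 111 in cerebellum 59. These 8-fold shares were thus set in large part by the filter and carry no support for a direction of X-linked genes.

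Rps4x, an X-linked ribosomal protein gene, stood at 54.9, 54.6, 50.2 and 55.3 CPM in cerebellum and 18.3, 20.5, 15.7 and 16.7 CPM in testes (log2 difference -1.60 ± 0.0760), while most ribosomal protein genes were higher in testes. Cox7b, an X-linked subunit of cytochrome oxidase, stood at 54.8, 55.3, 50.9 and 53.3 CPM in cerebellum and 4.70, 4.49, 4.10 and 4.89 CPM in testes (log2 difference -3.56 ± 0.0789). No library of either gene overlapped between tissues. On the Y chromosome, 44 protein-coding genes were tested, 40 passed the filter in testes only and 4 in both tissues. The 4 in both were Ddx3y, Kdm5d, Uty and Eif2s3y, broadly expressed partners of X-linked genes, and all 4 were higher in cerebellum. Ddx3y stood at 46.5, 40.6, 44.7 and 45.9 CPM in cerebellum and 16.6, 13.0, 13.8 and 14.8 CPM in testes (log2 difference -1.61 ± 0.0802), and Kdm5d at 52.5, 50.3, 58.7 and 58.6 CPM in cerebellum and 9.02, 8.43, 8.34 and 7.71 CPM in testes (log2 difference -2.70 ± 0.0900). Zfy2, a zinc finger gene of spermatogenesis, was at 0 in cerebellum and at 12.3, 9.64, 12.2 and 12.3 CPM in testes, at least 89.6-fold higher. Ssty1, of a multicopy spermatid family whose copies can share reads, was at 0 in cerebellum and at 3.86, 5.43, 5.34 and 5.73 CPM in testes, at least 39.3-fold higher.

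**Figure D3:**
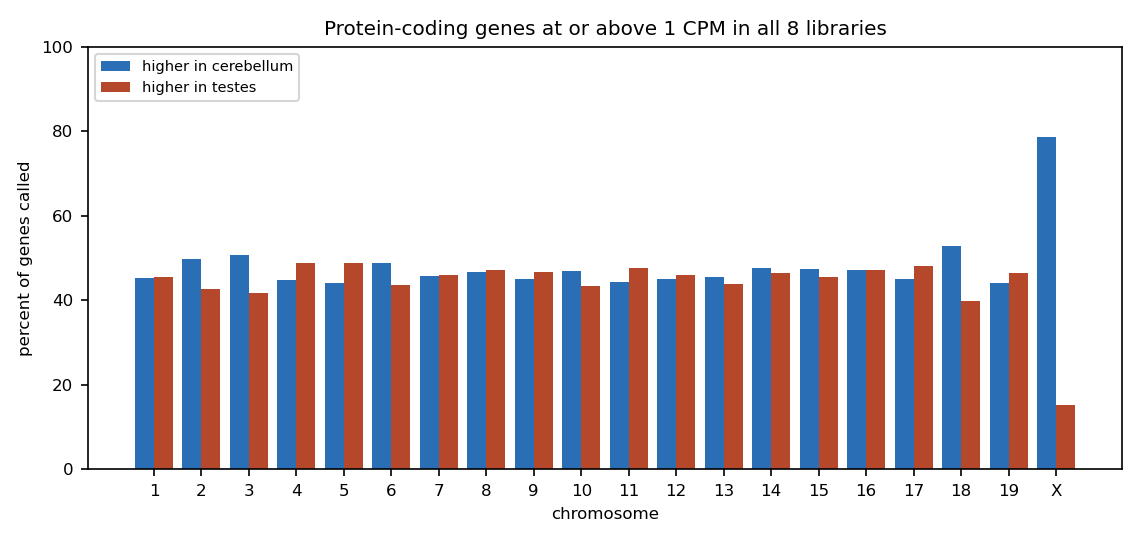
Percent of protein-coding genes at or above 1 CPM in all 8 libraries that were called higher in cerebellum (blue bars) or in testes (red bars), by chromosome. On the X chromosome 78.7% were higher in cerebellum and 15.2% in testes, and on each autosome both shares lie between 39.8 and 52.8%.

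Ribosomal protein and proteasome genes leaned to testes. Of 77 cytosolic ribosomal protein genes 68 were higher in testes and 6 in cerebellum, with a median log2 difference of 1.20, and the numbers were 66 and 9 with quantile normalization. Rplp0, a stalk protein of the large subunit, stood at 531, 576, 554 and 562 CPM in testes and 69.1, 69.9, 63.7 and 58.2 CPM in cerebellum (log2 difference 3.09 ± 0.0546). The 6 higher in cerebellum were Rps4x, Rpl39, Rpl22, Rpl10, Rpl3 and Rps3, of which Rps4x, Rpl39 and Rpl10 are X-linked. Of 34 tested proteasome genes 25 were higher in testes and 6 in cerebellum, and the numbers were 19 and 13 with quantile normalization and 20 and 13 with library totals or upper-quartile factors. Psmc3, an ATPase of the cap, stood at 431, 433, 445 and 459 CPM in testes and 46.8, 45.4, 44.0 and 44.9 CPM in cerebellum (log2 difference 3.29 ± 0.0385). Psme4, the activator used in histone removal in germ cells, stood at 842, 775, 844 and 844 CPM in testes and 87.8, 89.1, 89.9 and 89.3 CPM in cerebellum (log2 difference 3.21 ± 0.0426). Psma8, the germ-cell form of an alpha subunit, stood at 118 ± 3.32 CPM in testes and 0.181 ± 0.0443 CPM in cerebellum (SD, n = 4), while Psma7 was higher in cerebellum (log2 difference -0.87 ± 0.0681).

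Transcripts of the mitochondrial genome leaned to cerebellum, with 12 of 13 higher there, none higher in testes and a median log2 difference of -1.26. With quantile normalization mt-Co1, the first subunit of cytochrome oxidase, turned to 0.28 from -0.81. mt-Cytb, the cytochrome b of complex III, stood at 1394, 1314, 1301 and 1481 CPM in cerebellum and 556, 492, 462 and 468 CPM in testes (log2 difference -1.47 ± 0.0612). Of 53 nuclear genes for the respiratory chain, all at or above 1 CPM in both tissues, 24 were higher in testes and 22 in cerebellum. With quantile normalization the numbers were 16 and 29. The TMM counts lie near the 43% and 48.6% of all genes at or above 1 CPM in both tissues. Cox7a2 stood at 145, 136, 130.3 and 136 CPM in testes and 47.9, 52.1, 48.0 and 47.3 CPM in cerebellum (log2 difference 1.48 ± 0.0476), and Ndufa4 at 63.6, 62.8, 58.7 and 65.1 CPM in cerebellum and 8.32, 7.72, 7.86 and 8.59 CPM in testes (log2 difference -2.94 ± 0.0660).

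The genes at the centre of the series differed by less than most. Thumpd1 stood at 19.8, 19.8, 20.1 and 22.1 CPM in cerebellum and 26.2, 28.8, 27.3 and 28.2 CPM in testes (log2 difference 0.44 ± 0.0550, adjusted p 2.64e-05). Nat10, the acetyltransferase that Thumpd1 brings to tRNA, stood at 30.8, 31.8, 33.6 and 31.3 CPM in cerebellum and 59.9, 61.4, 61.2 and 64.2 CPM in testes (log2 difference 0.95 ± 0.0426, adjusted p 5.42e-09). Both genes were higher in testes in 4 of 4 libraries, by less than the median size of 1.33 among called genes that both tissues express. Of 54 tRNA modification enzymes 26 were higher in testes and 22 in cerebellum, with a median of 0.14 that became -0.20 with quantile normalization. These counts lie near the shares of all genes at or above 1 CPM in both tissues, 43% in testes and 48.6% in cerebellum. Elp5, of the Elongator complex, stood at 137, 145, 138 and 137 CPM in testes and 21.8, 23.1, 18.3 and 20.6 CPM in cerebellum (log2 difference 2.73 ± 0.0614), and Nsun2, a cytosine methyltransferase, at 167, 161, 168 and 173 CPM in testes and 39.7, 37.9, 39.3 and 40.1 CPM in cerebellum (log2 difference 2.09 ± 0.0391). Tarbp1, a ribose methyltransferase, pointed the other way at 20.6, 21.2, 22.7 and 22.7 CPM in cerebellum and 0.973, 1.39, 1.62 and 1.08 CPM in testes (log2 difference -4.11 ± 0.144).

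Aminoacyl-tRNA synthetases were divided, with 12 of 37 higher in testes, 13 in cerebellum and a median of -0.01, but this balance moved with scaling. The numbers were 11 and 24 with library totals or quantile normalization, and 16 and 13 with a median of 0.083 with DESeq2. Vars, the valine enzyme, stood at 529, 608, 617 and 596 CPM in testes and 46.5, 48.3, 48.1 and 41.6 CPM in cerebellum (log2 difference 3.67 ± 0.0765), and Nars, the asparagine enzyme, at 79.5, 78.8, 81.3 and 79.5 CPM in cerebellum and 21.6, 19.8, 20.6 and 20.4 CPM in testes (log2 difference -1.95 ± 0.0404). Of 28 tested genes of the integrated stress response, which slows translation under amino acid shortage and other stress, 13 were higher in testes and 14 in cerebellum. That is near the 43% and 48.6% of all genes at or above 1 CPM in both tissues. Asns, the asparagine synthetase, stood at 123, 125, 130.3 and 133 CPM in testes and 31.5, 30.5, 30.2 and 29.5 CPM in cerebellum (log2 difference 2.07 ± 0.0438). Atf4, the transcription factor of this response, stood at 72.2, 70.8, 65.7 and 68.2 CPM in cerebellum and 39.5, 40.7, 40.4 and 39.2 CPM in testes (log2 difference -0.80 ± 0.0407), and Impact, an inhibitor of the kinase Gcn2, at 103, 97.0, 95.9 and 102 CPM in cerebellum and 12.0, 9.90, 9.63 and 10.4 CPM in testes (log2 difference -3.24 ± 0.0706).

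Imprinted genes, which are read from 1 parental copy, leaned to cerebellum. Of 37 tested, 27 were higher in cerebellum and 8 in testes (30 and 5 with quantile normalization), and among the 27 at or above 1 CPM in both tissues 19 and 7 were. Meg3, a long noncoding RNA of brain, stood at 2873, 2903, 3195 and 3115 CPM in cerebellum and 18.2, 18.4, 15.3 and 14.4 CPM in testes (log2 difference -7.51 ± 0.104). Peg3, a zinc finger protein, stood at 774 ± 23.3 CPM in cerebellum and 17.9 ± 1.44 CPM in testes (SD, n = 4, log2 difference -5.43 ± 0.0599). Asb4, a ubiquitin ligase adaptor, stood at 51.5, 51.9, 51.1 and 49.3 CPM in testes and 0.944, 0.699, 2.23 and 2.48 CPM in cerebellum (log2 difference 5.19 ± 0.279), and Peg10, of retrotransposon origin, at 98.1, 106, 102 and 95.7 CPM in testes and 26.2, 26.7, 29.0 and 28.8 CPM in cerebellum (log2 difference 1.86 ± 0.0544).

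Most noncoding RNAs entered the test through 1 tissue, so that the shares below describe the tested genes and carry no support for a direction of a class. Of 1236 tested lincRNAs 942 passed the filter in testes only, 139 in cerebellum only and 153 in both tissues, and of 791 antisense RNAs 586, 98 and 103. Of the 1236 tested lincRNAs 72.2% were 8-fold higher in testes and 8.33% in cerebellum, and of the antisense RNAs 69.3% and 7.59%. Among processed pseudogenes, whose reads can be shared with their parent genes, 47.9% of 536 were 8-fold higher in testes and 9.70% in cerebellum. Loci that the annotation holds as still to be experimentally checked (TEC) stood at 12.1% of 1476 in testes and 32.9% in cerebellum, and 238 of them passed in testes only, 686 in cerebellum only and 540 in both tissues. Without the strand setting, reads of an antisense RNA and of its partner gene cannot be told apart. Protein-coding genes 8-fold higher in testes spanned a median of 16460 bp, those 8-fold higher in cerebellum 37764 bp and all others 25314 bp. Spans of at least 100 kb were held by 9.41%, 30.0% and 14.0% of these, and a single exon by 7.41%, 5.16% and 2.67%.

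**Figure D4:**
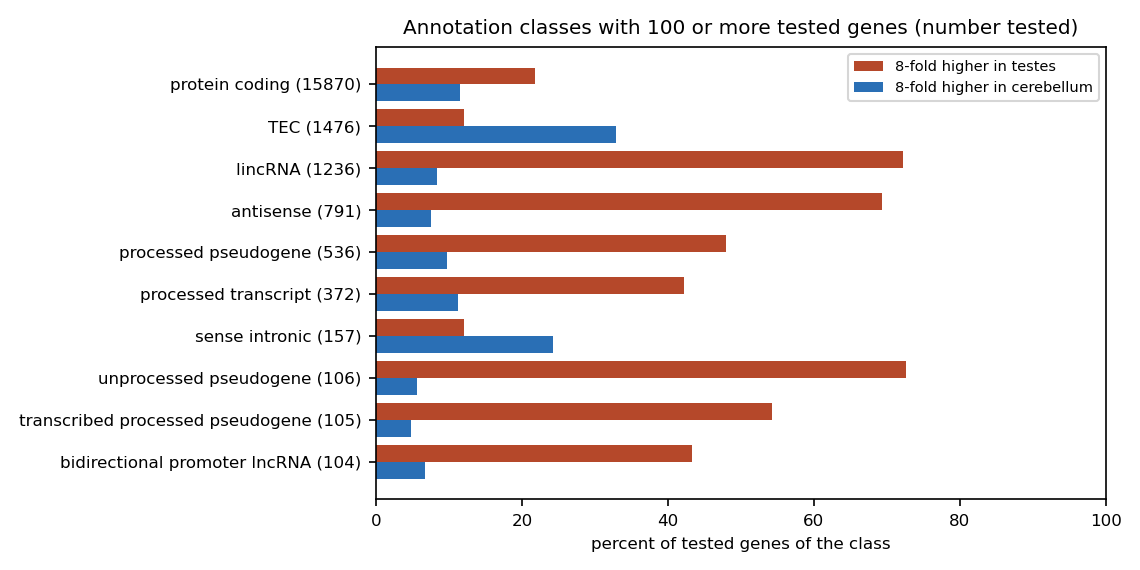
Percent of tested genes in each annotation class that were 8-fold higher in testes (red) or in cerebellum (blue), with the number tested in parentheses. The testes share is 72.2% for lincRNA and 21.8% for protein-coding genes, and the cerebellum share is above the testes share for TEC and sense intronic loci.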

How the data were processed

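The deposited table held expected counts, not normalized, with 1 column per library. The authors obtained them by aligning reads to mm10 with STAR and estimating counts with RSEM against GENCODE M21. Tool versions and the strand setting are not given in the sources used here. All 55450 gene identifiers were found in the annotation, and 108 symbols occurred more than once. Columns of liver and of knockout animals were not used.

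Counts of the 4 WT cerebellum and 4 WT testes libraries, 18.4 to 32.2 M each, were scaled with TMM factors (edgeR 4.0.16). Genes with a CPM of at least 1 in at least 4 libraries were fitted with limma-voom (limma 3.58.1, R 4.3.3) on tissue alone, and p-values were Benjamini-Hochberg adjusted over all 20969 genes with a threshold of 0.05. The study used limma-voom with quantile normalization, which was run as an alternative beside edgeR and DESeq2 1.42.0 (both on rounded counts), RLE, upper-quartile and total scaling, other filters, quality weights, a replicate block and each library left out. Single values were tested by exact permutation over libraries. On simulated data with 200 changed genes among 20969, the fit recovered 93% of those set at a log2 change of 1 and 100% at 2, with 5.85% false calls. The simulation gave both tissues the same mean levels apart from those 200 genes. These rates therefore do not measure error between tissues in which most genes differ. Replicate libraries differed beyond counting noise (chi-square per degree of freedom of 2.22 or more). Cerebellum replicates 1 and 2 (4.19) and 3 and 4 (3.25) were closer than other cerebellum pairs (7.72 to 10.8). Testes replicates 3 and 4 (2.22) were closer than other testes pairs (6.35 to 13.6). Repeats from 1 animal could also exceed counting noise, so that these values cannot show separate animals. Each library was treated as a replicate.

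Genes named were, without predicted genes and pseudogenes, (a) the 10 with the highest level per kilobase in each tissue among 8-fold calls, (b) the 10 largest log2 differences in each direction whose log2 CPM averaged 1 or more and that had counts in every library, (c) up to 6 highest members of each of 36 gene lists and every member called against its list (at most 6), (d) members of 54 paralog pairs, and (e) Thumpd1 and Nat10. A few genes that this rule names are not reported here. Other genes named are said to be outside this rule or mark the filter limit or a neighbouring tissue. The comparison, lists and pairs were chosen with earlier results of these data known. Coding sequences came from GENCODE M21 and promoters from RefSeq (GRCm38.p6). RefSeq promoters matched 77.5% of the tested protein-coding genes, under the 80% set as a minimum, so that a comparison of promoter motifs between tissue-high genes was void. Besides the X-box core, the cyclic AMP response element TGACGTCA was searched.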

Additional observations from a re-analysis of the deposited data

Results flagged for a closer look

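Within each tissue, 401 groups of 4 libraries were looked at for a library far from the other 3, and 30 had one, where chance gives about 1 in 20. Testes replicate 2 was the distant library in 10 of them. It held 138 CPM of epididymis markers, of which Crisp1 made up 104 CPM, and stood highest for the smooth muscle actin Acta2 (62.1 CPM), for the inhibitory interneuron list (22.2 CPM), for Ret (2.89 CPM) and for Rpl10 (37.5 CPM). It stood lowest for Fhl4 (2119.8 CPM), Psme4 (775 CPM), Zfy2 (9.64 CPM) and the neuronal RNA-binding protein list (396 CPM). Whether epididymal RNA has a part in these values was not tested.

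In cerebellum, 8 germ-cell or Leydig genes had counts in 1 library and 0 in the other 3, which makes that library distant by construction. These were Prm1 at 0.0496 CPM in replicate 3, Ldhc, Adam3, Cyp17a1, Atp1a4 and Smc1b at 0.0393 CPM each in replicate 1, and Tcte3 at 0.100 CPM and Gk2 at 0.0468 CPM in replicate 4. Oaz3 was highest in cerebellum replicate 4 at 0.140 CPM. All lie near or under the level of 3 counts.

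Smaller gaps were seen in testes for March10 (739.8 CPM, lowest in replicate 1), Kitl (35.6 CPM, highest in replicate 1), Uty (12.8 CPM, highest in replicate 1), Eef1a2 (0.221 CPM, highest in replicate 3), Rad21 (90.7 CPM, highest in replicate 3) and Kit (41.3 CPM, lowest in replicate 4). In cerebellum they were seen for Cox7a2 (52.1 CPM) and Rps3 (87.1 CPM), both highest in replicate 2, for Stag3 (0.773 CPM, lowest in replicate 2), for Rps4x (50.2 CPM, lowest in replicate 3) and for Thumpd1 (22.1 CPM, highest in replicate 4). In none of these did the distant library reach the values of the other tissue.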

How the results depend on the processing

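Every setting that was run gave more genes called higher in testes than in cerebellum except quantile normalization, which called 9370 and 10284, with 4302 genes 8-fold higher in cerebellum. Without a CPM filter, 16920 genes were higher in testes, 8671 of them 8-fold, and the members called were 7 of the forebrain, midbrain and brainstem list in testes (2 with quantile normalization), 3 of the epididymis list in testes and 5 of the blood list in cerebellum. There Prm2, Dnah8 and mt-Co1 missed the threshold. Of the choroid plexus list 5 members were called in cerebellum with DESeq2 and with edgeR, and its median was 0.81 without cerebellum replicates 1 and 2. Aminoacyl-tRNA synthetases higher in cerebellum numbered 24 with library totals, 24 with quantile normalization and 23 with upper-quartile factors. In the same order, the median of the tRNA modification list was -0.13, -0.20 and -0.11, and log2 differences were -0.23, -0.27 and -0.21 for Cstf2t, -0.25, -0.26 and -0.23 for Utp14b, and -0.086, -0.15 and -0.067 for Pfn2. Quantile normalization alone turned Gabra5 (-1.51), Grik5 (-0.0062), Ptbp2 (-0.056), mt-Co1 (0.28) and the median of the forebrain, midbrain and brainstem list (-1.45). The cause of these changes was not tested. With each library left out, the difference in genes at 1 CPM or more ran from 3469 to 3538, with an exact permutation p of 0.0571, the smallest that 3 against 4 can give, and genes called ran from 10990 to 11082 in testes and from 8518 to 8582 in cerebellum.

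Deviations from the tissue means of same-numbered libraries correlated at 0.0365, 0.209, 0.000868 and 0.0462, so that the numbers were not taken to pair libraries. With the replicate block, 11090 and 8594 genes were called, and 5 members of the choroid plexus list in cerebellum. Not every library correlated best with its own number. A 4-fold limit left the order of gene spans as it was, with medians of 18063.5, 34334 and 25059 bp. The 4-fold comparison of promoter motifs was not run. Genes under about 3 counts per library cannot be told from 0 at this depth, and neither library preparation nor tissue dissection can be separated from tissue.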

Other observations

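Clustered protocadherins on chromosome 18, adhesion proteins that give neurons their surface identity, were looked at after the values of that chromosome had been seen. Of 56 tested, 44 were higher in cerebellum and 31 of them 8-fold, with a median log2 difference of -3.33. Of all genes tested, 41.1% were higher in cerebellum and 12.6% 8-fold. Of the other 377 protein-coding genes tested on chromosome 18, 58 were 8-fold higher in cerebellum (15.4%). The set was picked from these same values, so that its difference from the rest of the chromosome carries no support. Exons of the clustered genes are shared between neighbours, so that the split of counts among them is uncertain.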
